A study of Mus musculus with 12 samples.

Results

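The replication-type histone genes were taken as every gene whose symbol begins with Hist1h, Hist2h, Hist3h or Hist4h in the authors' deposited tables, which gave 58 of the 16399 symbols listed in all. All 58 were listed in every table: 5 linker H1 genes, 14 H2A, 17 H2B, 10 H3 and 12 H4. By symbol, 48 belong to the Hist1 cluster, 6 to Hist2, 3 to Hist3 and 1, Hist4h4, stands alone. Of the 17 H2B rows, Hist3h2bb-ps is annotated as a pseudogene.

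The tables come from cultures of MC38 tumours, a mouse colon carcinoma line, taken from C57BL/6 albino mice. Tumours were dissociated, and pieces measuring 40 to 100 µm were set in a gel of collagen (2.8 mg/mL) inside microfluidic chips, where each well held 300 µL of medium for 6 days. There were 3 samples per group: aPD-1 (antibody RMP1-14 at 10 µg/mL), which blocks the inhibitory receptor PD-1; aPD-1+CD8 (RMP1-14 with an antibody to CD8, each at 10 µg/mL); IFNg (interferon gamma at 100 ng/mL); and IgG (isotype antibody 2A3 at 10 µg/mL). The labels name no control antibody for the IFNg wells. Each library took in 250 ng of total RNA and was enriched by exome capture. Whether samples sharing a group had separate tumours or chips is left unsaid in the labels, so p-values measure the spread between these samples alone, and that spread may be technical.

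Replication-type histone genes supply the proteins that package newly copied DNA. H2A, H2B, H3 and H4 form the nucleosome core, and H1 binds the linker DNA between nucleosomes. Their mRNAs are made mainly in S phase and normally end without a poly(A) tail, in a stem-loop bound by the protein SLBP. Most of the genes lie in clusters, and many encode the same protein.

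The stem-loop is the feature that sets these mRNAs apart, so it is shown for members whose values recur here. A stem-loop of 16 bases was found in the GENCODE M21 transcripts of 38 of the 58 members, in 8 different forms. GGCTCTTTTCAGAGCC was present in 20 members, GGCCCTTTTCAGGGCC in 6 and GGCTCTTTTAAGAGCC in 5. Of the 20 members without a match, 13 have a longest transcript that ends within 20 bases of the stop codon. Each line runs 5′ to 3′ along the mRNA, written as DNA, with the stem-loop in capitals and 5 bases on either side.
Hist1h1c: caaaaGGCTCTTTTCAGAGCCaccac
Hist3h2a: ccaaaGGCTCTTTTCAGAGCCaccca
Hist2h2ac: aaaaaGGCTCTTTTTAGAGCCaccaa
Hist1h2bp: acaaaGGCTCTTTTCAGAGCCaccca
Hist1h3f: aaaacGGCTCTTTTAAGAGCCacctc
Hist1h4a: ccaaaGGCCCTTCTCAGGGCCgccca
Hist4h4: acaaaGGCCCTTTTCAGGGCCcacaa
The Hist1h1c, Hist3h2a and Hist1h2bp stem-loops are the same. Those of Hist4h4 and Hist1h4a carry other stem letters, and the loop letters also differ among the 7.

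The promoters of 4 members are shown next: Hist1h2bp and Hist4h4, with high changes against IgG, and Hist1h1c and Hist3h2a, which passed in comparisons against aPD-1. RefSeq holds a promoter, from 250 bases before to 50 bases after the gene's start, for 52 of the members. All windows are from GRCm38.p6 and run 5′ to 3′ along the gene's strand: Hist1h1c at chr13:23738557-23738856 (+), Hist3h2a at chr11:58954435-58954734 (+), Hist1h2bp at chr13:21787238-21787537 (+) and Hist4h4 at chr6:136804382-136804681 (-). Capitals mark the motifs searched on both strands. The letters CCAAT are bound by NF-Y, and TATAAA are letters of the TATA box, wherever in the window they stand. ATTTGCAT is the octamer bound by OCT1, and TTCNNNGAA is the core of sites bound by STAT proteins.
Hist1h1c: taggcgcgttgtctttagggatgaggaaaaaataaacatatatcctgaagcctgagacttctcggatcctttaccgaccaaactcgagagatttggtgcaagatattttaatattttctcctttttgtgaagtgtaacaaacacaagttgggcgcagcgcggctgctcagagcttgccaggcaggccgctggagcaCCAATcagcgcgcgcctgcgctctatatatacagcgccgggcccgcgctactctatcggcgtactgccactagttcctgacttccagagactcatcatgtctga
Hist3h2a: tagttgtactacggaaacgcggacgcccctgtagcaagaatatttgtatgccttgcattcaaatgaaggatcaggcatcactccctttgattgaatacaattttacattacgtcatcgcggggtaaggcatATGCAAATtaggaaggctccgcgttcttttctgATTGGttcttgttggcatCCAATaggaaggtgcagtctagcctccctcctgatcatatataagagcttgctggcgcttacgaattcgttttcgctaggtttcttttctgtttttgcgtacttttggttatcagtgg
Hist1h2bp: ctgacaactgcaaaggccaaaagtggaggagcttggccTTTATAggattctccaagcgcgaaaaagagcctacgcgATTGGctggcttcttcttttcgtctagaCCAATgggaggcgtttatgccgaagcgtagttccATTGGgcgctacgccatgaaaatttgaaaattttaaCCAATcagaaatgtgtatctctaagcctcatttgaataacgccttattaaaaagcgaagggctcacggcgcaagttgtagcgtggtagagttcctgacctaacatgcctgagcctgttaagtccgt
Hist4h4: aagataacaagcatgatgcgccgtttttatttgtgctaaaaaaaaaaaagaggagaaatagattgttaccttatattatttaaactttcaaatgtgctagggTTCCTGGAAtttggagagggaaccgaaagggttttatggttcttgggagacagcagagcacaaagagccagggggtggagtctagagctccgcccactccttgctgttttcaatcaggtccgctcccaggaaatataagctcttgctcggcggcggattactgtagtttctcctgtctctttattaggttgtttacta
CCAAT was present in 44 of the 52 histone promoters (84.6%) and in 37.4% of all 32851 RefSeq promoters. It stood in every H1, H2A, H2B and H3 window but in 3 of 11 H4 windows. TATAAA was present in 63.5% of the histone promoters and 13.6% of all promoters. The match in the Hist1h2bp window lies on the other strand, far from its start, and is the TATAAA of the overlapping Hist1h2an window. ATTTGCAT was present in 25.0% and 1.74%, and its 13 histone matches were 7 H2A and 6 H2B genes. Windows of some H2A and H2B pairs overlap, so the same site can count for both genes. The ATTTGCAT of Hist1h2ae and Hist1h2bg is such a site. RefSeq gives Hist1h2be 2 windows, of which the first listed was counted for every motif. ATTTGCAT stood only in its other window, which was not counted. TTCNNNGAA was present in 3 histone promoters (5.77%), among them Hist4h4, and in 8.30% of all promoters. Matches of different motifs may overlap, and a match describes letters only.

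The tables hold the authors' mean normalized count of each gene over the samples compared (DESeq2's baseMean), a log2 fold change, its standard error (SE) and p-values. They hold no single-sample values, so the spread and overlap of samples within groups cannot be shown. The level of each group was computed from the mean count and the change of the same table. Genes under a mean count of 10 had, in the authors' deposited table for aPD-1+CD8 v IgG, a median SE of 0.0217, below the 0.107 of genes from 100 upwards. Whether the changes were shrunken towards 0 is not stated in the sources; if they were, the levels, sums and ratios made from them lie closer together than the counts would, most of all in that table. For aPD-1 v IgG in the authors' deposited table, the histone genes made up 0.767% of all mean counts, and 0.717% to 0.919% over all tables. The 45S ribosomal RNA gene Rn45s took 27.8% to 29.6% of each table's sum of 10292941 to 11590748. A lower RNA content per cell and fewer cells of a type cannot be told apart in these bulk samples.

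Histone genes were highly represented in the counts but unequal. The libraries were enriched by exome capture, and its yield for each gene is not given. Counts of different genes may therefore not rank their RNA amounts. The comparison aPD-1 v IgG showed, in the authors' deposited table, that 4 members had a mean normalized count above 5000, 25 lay at 1000 to 5000, 23 at 100 to 1000, 1 at 10 to 100 and 5 under 10. The 4 highest were Hist2h2bb (9241), Hist2h2ac (6988), Hist1h2bm (6220) and Hist1h2bb (5824), 3 H2B genes and 1 H2A gene, and together they made up 31.8% of the histone sum. The member at 10 to 100 was Hist2h2ab, at 34.0. The 5 lowest in the authors' deposited table were Hist1h4n (1.18), Hist1h2ba, the testis H2B gene (1.83), Hist3h2ba (2.42), the pseudogene Hist3h2bb-ps (4.48) and Hist1h2aa, the testis H2A gene (4.74). Each other table also had 5 members under 10. Within the other classes the highest 2 in the authors' deposited table were Hist1h4d (3640) and Hist1h4c (2006) for H4, Hist1h3b (1541) and Hist2h3b (1312) for H3, and Hist1h1e (721) and Hist1h1d (544) for H1. The second H2A gene after Hist2h2ac was Hist1h2ak, at 4463.

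H2B genes carried 48.3% of the histone counts in the authors' deposited table for aPD-1 v IgG, H2A 24.9%, H4 15.4%, H3 8.75% and H1 2.56%. Because the genes differ in length, levels were also divided by coding length. On that scale the median was 5819 counts per coding kb for 16 H2B genes, 3310 for 12 H4, 3122 for 14 H2A, 1831 for 10 H3 and 732 for 5 H1. The ranges were wide: H2B genes ran from 5 to 24446 counts per coding kb and H1 genes from 417 to 1098. The range within H2A, H2B and H4 was thus wider than the distance between the class medians. Ranks depend on the length used. Per kb of the longest annotated transcript, Hist1h4d ranked 18 among the members instead of 5, while Hist2h2bb ranked 1 on both scales. Class medians were not computed per transcript kb.

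**Figure D1:**
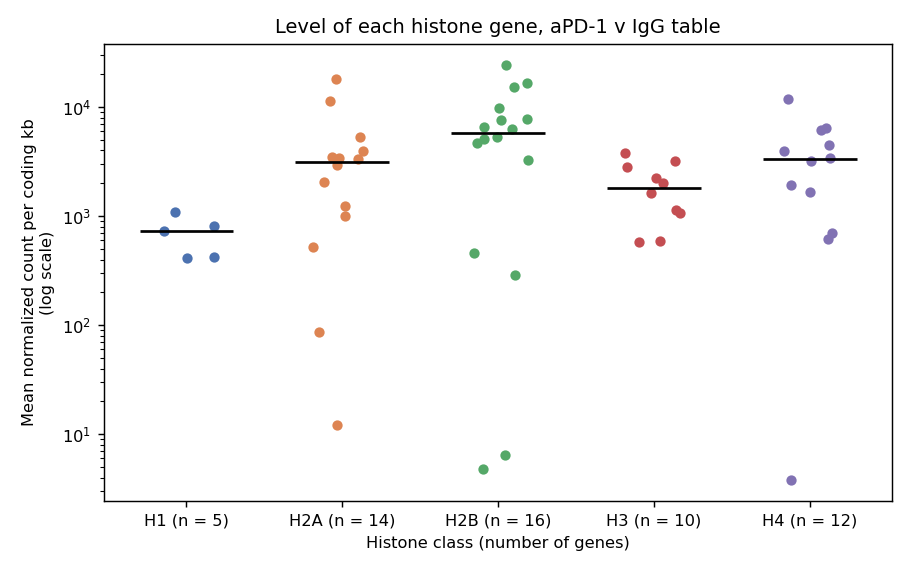
Mean normalized count per coding kb (log scale) of each histone gene in the authors' deposited table for aPD-1 v IgG, by class; points are genes and bars are class medians. H2B has the highest median, 5819, and H1 the lowest, 732.

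More histone genes rose than fell in anti-PD-1 cultures. In the authors' deposited table for aPD-1 v IgG, 13 of 56 tested members rose at an adjusted p under 0.05 and 0 fell, against a background of 8.50% of all 12024 tested genes higher and 10.0% lower. At an unadjusted p under 0.05, DESeq2 gave 26 members higher and 2 lower. Of all 12024 genes tested, 1576 were higher and 1814 lower at that threshold. The log2 change was positive for 54 of the 58 members and ran from -0.47 to 0.87, with a median of 0.34, against 0.01 over all genes tested. Summed levels were 97598 in aPD-1 and 80100 in IgG cultures, a ratio of 1.22.

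The linker genes gave 2 of the 13. Hist1h1c, an H1 gene, had levels of 576 in aPD-1 and 355 in IgG cultures in the authors' deposited table, a log2 change of 0.70 ± 0.19 (SE, adjusted p = 0.00238). Hist1h1b, another H1 gene, rose by 0.54 ± 0.18 on the log2 scale in the authors' deposited table (334 in aPD-1, 229 in IgG; adjusted p = 0.0186). The other 3 H1 genes had changes of 0.37 to 0.47 in that table and did not pass. The smallest adjusted p among them was 0.0675, for Hist1h1a.

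H2B genes gave 5 of the 13 and H2A genes none of 14 tested. Hist1h2bl had levels of 2149 in aPD-1 and 1401 in IgG cultures, and Hist1h2bp had 240 in aPD-1 and 140 in IgG cultures, in the authors' deposited table. Their log2 changes were 0.62 ± 0.14 (SE, adjusted p = 0.000144) and 0.78 ± 0.26 (adjusted p = 0.0193) in the authors' deposited table. Hist1h2be, Hist1h2bh and Hist1h2bn rose by 0.40, 0.56 and 0.44. The most abundant members did not pass: Hist2h2bb changed by 0.28 ± 0.13 (SE, adjusted p = 0.104), Hist2h2ac by 0.22 ± 0.16 (0.399), Hist1h2bm by 0.32 ± 0.15 (0.143) and Hist1h2bb by 0.28 ± 0.15 (0.212) in the authors' deposited table. The median change was 0.32 for H2A and 0.33 for H2B, and whether the classes differ was not tested. Hist1h2ad, an H2A gene, had 0.74 with an SE of 0.39 in the authors' deposited table.

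H3 genes gave 4 and H4 genes 2. Hist1h3h rose by 0.71 ± 0.22 (SE, adjusted p = 0.00975), Hist1h3i by 0.60, Hist1h3a by 0.52 and Hist1h3f by 0.46 on the log2 scale in the authors' deposited table. Hist4h4, an H4 gene outside the large clusters, had levels of 273 in aPD-1 and 157 in IgG cultures and rose by 0.79 ± 0.18 (SE, adjusted p = 0.000152) in the authors' deposited table. Hist1h4a rose by 0.60 ± 0.18 (adjusted p = 0.0056). The 4 members with a negative change were Hist1h4d, Hist2h2ab, Hist2h2be, the H2B gene known from mouse olfactory neurons, and Hist3h2a, an H2A gene. Hist2h2be had -0.47 ± 0.22 (adjusted p = 0.13) and Hist3h2a -0.40 ± 0.16 (adjusted p = 0.066) in the authors' deposited table.

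Some markers of other cell types moved in the same comparison. For aPD-1 v IgG in the authors' deposited table, 7 fibroblast markers summed to 6693 in aPD-1 and 2798 in IgG cultures, with 3 higher (Col1a1, Dcn and Pdgfra) and 0 lower. Pdgfrb changed by -0.28 ± 0.21 (SE) and Col1a2 by 0.24 ± 0.42, and neither passed. Lum and Acta2 lay under a mean count of 10. Of 4 endothelial markers Cdh5 rose, and the list summed to 89.1 in aPD-1 and 33.1 in IgG cultures. Cdh5 alone made up 86.6 and 30.8 of these sums, and Pecam1, Kdr and Tek lay under a mean count of 10. The 6 macrophage markers listed summed to 145 in aPD-1 and 159 in IgG cultures in the authors' deposited table. The 5 T and NK cell markers listed summed to 2.40 in aPD-1 and 2.48 in IgG cultures. The 6 epithelial markers, among them Epcam, summed to 6.95 in aPD-1 and 10.94 in IgG cultures, and none reached a mean count of 10; Krt19 fell. The part of fibroblasts and other cells in the histone values was not tested.

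Histone genes also rose in IFNg cultures, which were set against the same IgG samples. The comparison IFNg v IgG showed, in the authors' deposited table, that 17 of 54 tested members rose and 0 fell, against a background of 2.73% of 11478 genes higher and 1.38% lower. At an unadjusted p under 0.05, DESeq2 gave 39 members higher and 0 lower. Of all 11478 genes tested, 743 were higher and 614 lower at that threshold. The median log2 change was 0.50, with a range of -0.19 to 1.18, against 0.01 over all genes tested. Summed levels were 113688 in IFNg and 79816 in IgG cultures, a ratio of 1.42. The fibroblast markers summed to 2656 in IFNg and 2535 in IgG cultures in the authors' deposited table, and 2 rose and 1 fell.

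Hist1h2bp had the greatest log2 change among the members, 1.18 ± 0.23 (SE, adjusted p = 2.96e-05), with levels of 346 in IFNg and 152 in IgG cultures in the authors' deposited table. Some abundant core genes passed here. Hist1h2bm had levels of 8940 in IFNg and 5539 in IgG cultures and a change of 0.69 ± 0.18 (SE, adjusted p = 0.00726) in the authors' deposited table. Hist2h2ac, the H2A member that passed, had 9593 in IFNg and 6416 in IgG cultures and a change of 0.58 ± 0.18 (adjusted p = 0.0328). Hist2h2bb, with the highest mean count of all members, had 0.50 ± 0.19 (adjusted p = 0.148) in the authors' deposited table and did not pass. Neither did Hist1h2bb, with 0.47 ± 0.20 (SE, adjusted p = 0.231).

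Of the linker genes, Hist1h1a rose by 0.83 ± 0.23 (SE, adjusted p = 0.00928) and Hist1h1c by 0.65 ± 0.19 (adjusted p = 0.0231) in the authors' deposited table for IFNg v IgG. H3 genes gave 5 of 10 tested, with changes of 0.59 for Hist1h3c, 0.62 for Hist2h3b, 0.73 for Hist1h3a, 0.81 for Hist1h3f and 0.88 for Hist1h3h. H2B genes gave 7 of 14: besides Hist1h2bp and Hist1h2bm, Hist1h2bh rose by 0.70, Hist1h2bj by 0.66, Hist1h2bl by 0.64, Hist1h2bn by 0.61 and Hist1h2be by 0.56 on the log2 scale in the authors' deposited table. The H4 genes gave 2 of 11: Hist4h4 rose by 0.87 ± 0.25 (adjusted p = 0.0164) and Hist1h4i by 0.75 ± 0.22 (adjusted p = 0.0186) in the authors' deposited table. The 4 negative members were Hist1h2bf, Hist2h2ab, Hist2h2be and Hist3h2ba, between -0.19 and -0.01.

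**Figure D2:**
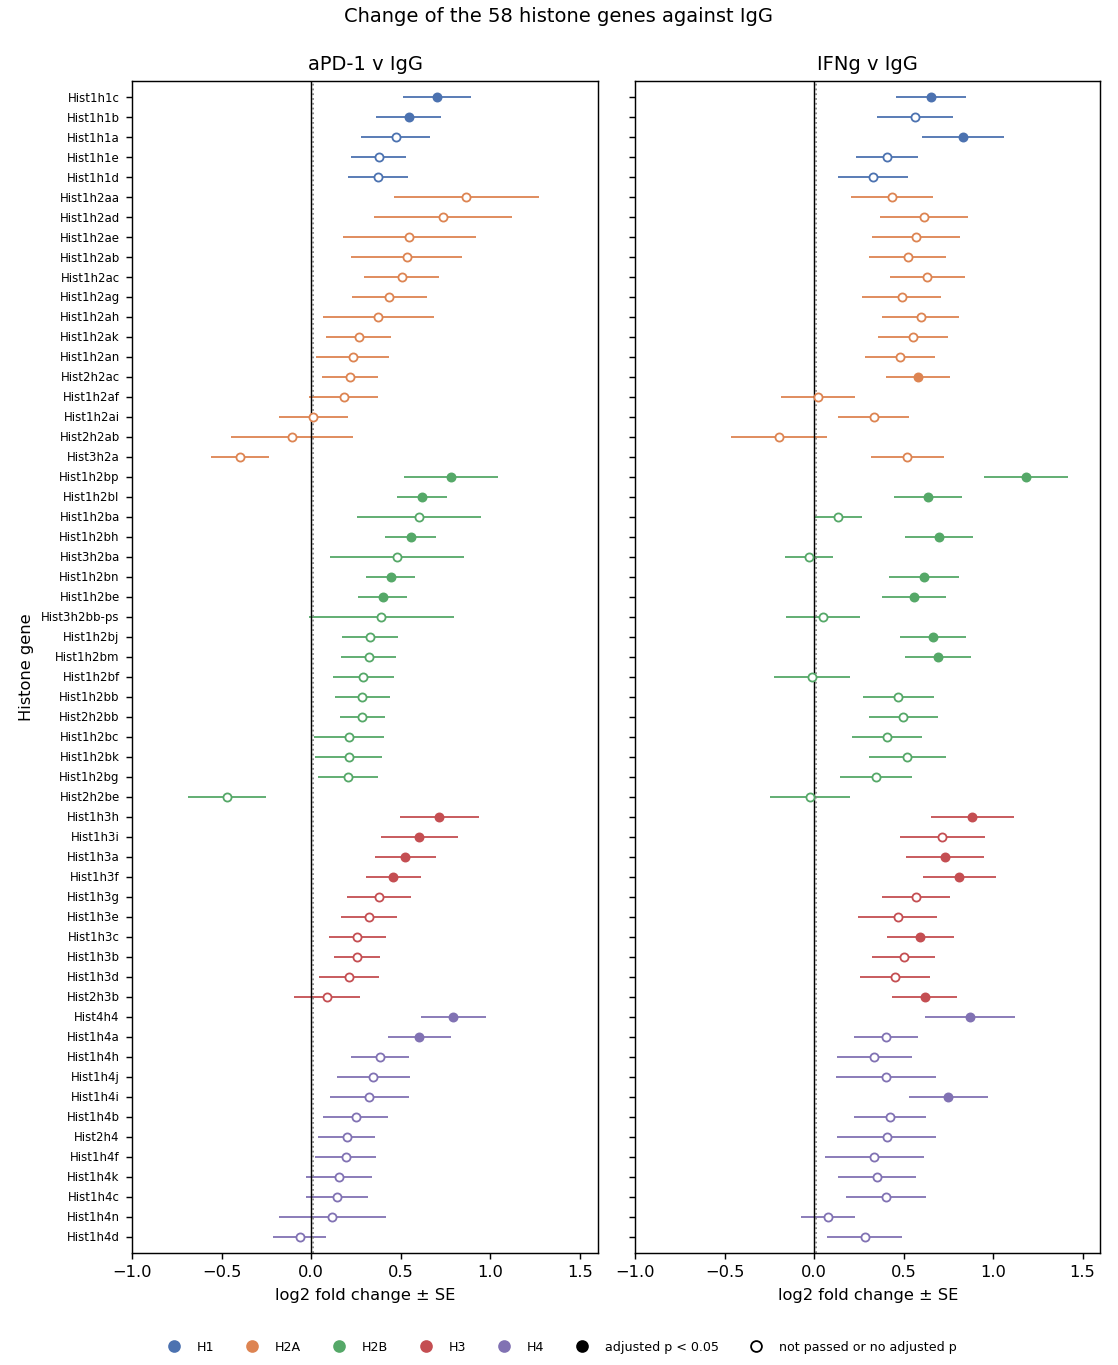
Log2 fold change with SE of each of the 58 histone genes in the authors' deposited tables for aPD-1 v IgG (left) and IFNg v IgG (right), coloured by class; filled points have an adjusted p under 0.05 and the dotted line is the median of all genes tested. Filled points number 13 and 17, and all lie to the right of 0.

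The class medians were close. In the authors' deposited table for aPD-1 v IgG they were 0.47 for H1, 0.32 for H2A, 0.33 for H2B, 0.35 for H3 and 0.22 for H4 on the log2 scale. In that of IFNg v IgG they were 0.61 for H3, 0.57 for H1, 0.52 for H2A, 0.50 for H2B and 0.40 for H4. Summed levels rest mostly on the abundant genes: H2B summed to 47804 in aPD-1 and 38102 in IgG cultures, and to 55135 in IFNg and 37914 in IgG cultures. H1 summed to 2647 in aPD-1 and 1908 in IgG cultures, a ratio of 1.39, and H4 to 14558 in aPD-1 and 12887 in IgG cultures, a ratio of 1.13. H4 had the lowest ratio in IFNg v IgG too, 1.29, and H3 the highest, 1.51.

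**Figure D3:**
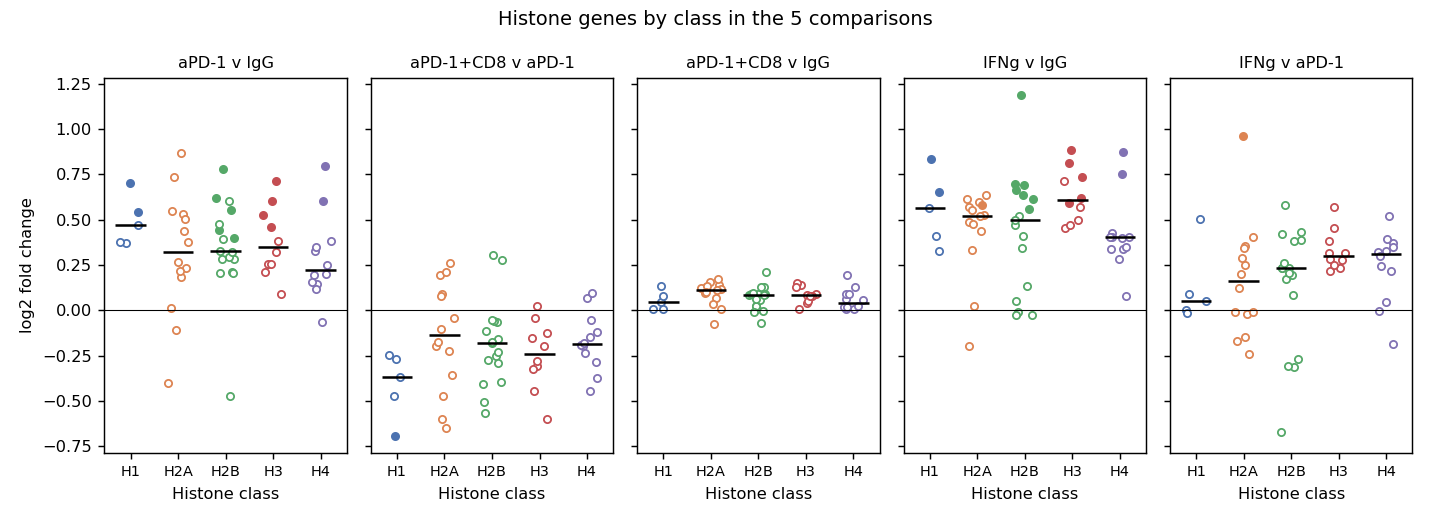
Log2 fold change of each histone gene by class in the authors' deposited tables for the 5 comparisons; points are genes, filled at an adjusted p under 0.05, and bars are class medians. Medians are above 0 in all comparisons except aPD-1+CD8 v aPD-1, where they run from -0.37 for H1 to -0.14 for H2A.

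With the anti-CD8 antibody added, histone levels lay below those of aPD-1 alone for most members, though 1 gene passed the test. In the authors' deposited table for aPD-1+CD8 v aPD-1, 0 of 55 tested members rose and 1 fell, against a background of 7.82% of 11560 genes higher and 6.94% lower. At an unadjusted p under 0.05, DESeq2 gave 0 members higher and 9 lower. Of all 11560 genes tested, 1549 were higher and 1393 lower at that threshold. The median log2 change was -0.20, with 48 of 58 members negative, against a median of 0.00 over all genes tested. The member that fell was Hist1h1c, at levels of 312 in aPD-1+CD8 and 504 in aPD-1 cultures, a change of -0.69 ± 0.21 (SE, adjusted p = 0.00959) in the authors' deposited table. Hist1h2ad had -0.60 (adjusted p = 0.122), Hist1h3i -0.60 (adjusted p = 0.0506) and Hist1h2bl -0.50 (adjusted p = 0.0568) in that table. Among members whose mean count reached 10, the highest changes were those of Hist2h2be, Hist3h2a and Hist2h2ab, at 0.31, 0.26 and 0.21 in the authors' deposited table, and none passed. Summed levels were 76807 in aPD-1+CD8 and 85640 in aPD-1 cultures. The fibroblast markers summed to 2426 in aPD-1+CD8 and 5680 in aPD-1 cultures in the authors' deposited table, and 2 fell (Dcn and Pdgfra). Pdgfrb had a positive change, 0.22 ± 0.38 (SE), and did not pass. The endothelial markers summed to 30.2 in aPD-1+CD8 and 77.3 in aPD-1 cultures, and Cdh5 fell (-1.42 ± 0.31, SE, adjusted p = 0.000118), in the authors' deposited table. Cdh5 alone made up 28.1 and 75.0 of these sums. The part of either list in the histone values was not tested. Since aPD-1 cultures stand in this comparison and in aPD-1 v IgG with opposite sign, the changes of the 2 are tied.

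Against IgG, the combination gave no calls. For aPD-1+CD8 v IgG in the authors' deposited table, DESeq2 passed 0 of the 58 members and 0 of all 15304 tested genes, a background of 0%. At an unadjusted p under 0.05 it gave 1 member higher, Hist1h2bp (0.21 ± 0.11, SE, unadjusted p = 0.0449), and 0 lower, where the background was 0.137% higher and 0.235% lower. The largest log2 change of any gene in this deposited table was 0.35 in size, against 4.93 to 5.98 in the other 4, so its median member change of 0.08 cannot be set beside theirs. Hist4h4 and Hist1h2an followed at 0.19 and 0.17, and the lowest values were -0.07 for both Hist3h2a and Hist2h2be in the authors' deposited table. Summed levels were 77009 in aPD-1+CD8 and 72960 in IgG cultures.

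Set directly against aPD-1, IFNg cultures had 1 member that passed. The comparison IFNg v aPD-1 showed, in the authors' deposited table, that 1 of 57 tested members rose and 0 fell. The background was 8.39% of 12260 genes higher and 7.13% lower. At an unadjusted p under 0.05, DESeq2 gave 7 members higher and 0 lower. Of all 12260 genes tested, 1678 were higher and 1503 lower at that threshold. The member that passed was Hist3h2a, at levels of 1301 in IFNg and 667 in aPD-1 cultures. Its change was 0.96 ± 0.24 (SE, adjusted p = 0.000882) in the authors' deposited table. Its levels were 1318 in IFNg and 920 in IgG cultures in the authors' deposited table for IFNg v IgG, a change of 0.52 ± 0.20 that did not pass (adjusted p = 0.168). The median member change was 0.24, with 45 members positive and 13 negative. The fibroblast markers summed to 2647 in IFNg and 6418 in aPD-1 cultures in the authors' deposited table, with 3 lower. Pdgfrb (0.16 ± 0.29, SE) and Acta2 (1.13 ± 0.47) had positive changes there and did not pass. The part of these markers in the histone values was not tested. After Hist3h2a, the highest member changes were 0.58 ± 0.29 (SE, adjusted p = 0.188) for Hist1h2bp and 0.57 ± 0.22 (adjusted p = 0.0577) for Hist2h3b, an H3 gene, in the authors' deposited table. Among members whose mean count reached 10, the lowest were Hist1h2bf (-0.31), Hist1h2ad (-0.24) and Hist1h4a (-0.18), and none passed.

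Change was also set against abundance. Over the 53 members whose mean count reached 10, Spearman's rho between log2 change and mean count was -0.355 in aPD-1 v IgG and -0.159 in IFNg v IgG in the authors' deposited tables. The points share their libraries, and the same counts enter both axes. In aPD-1 v IgG, the 17 members with the lowest counts had a median change of 0.54 with 8 calls, the 19 in the middle 0.26 with 1 call, and the 17 highest 0.28 with 4 calls. In IFNg v IgG the median was 0.61 for the lowest, 0.47 for the middle and 0.52 for the highest, with 7, 3 and 7 calls in that order. The shares of all genes tested called higher were 8.50% in aPD-1 v IgG and 2.73% in IFNg v IgG.

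**Figure D4:**
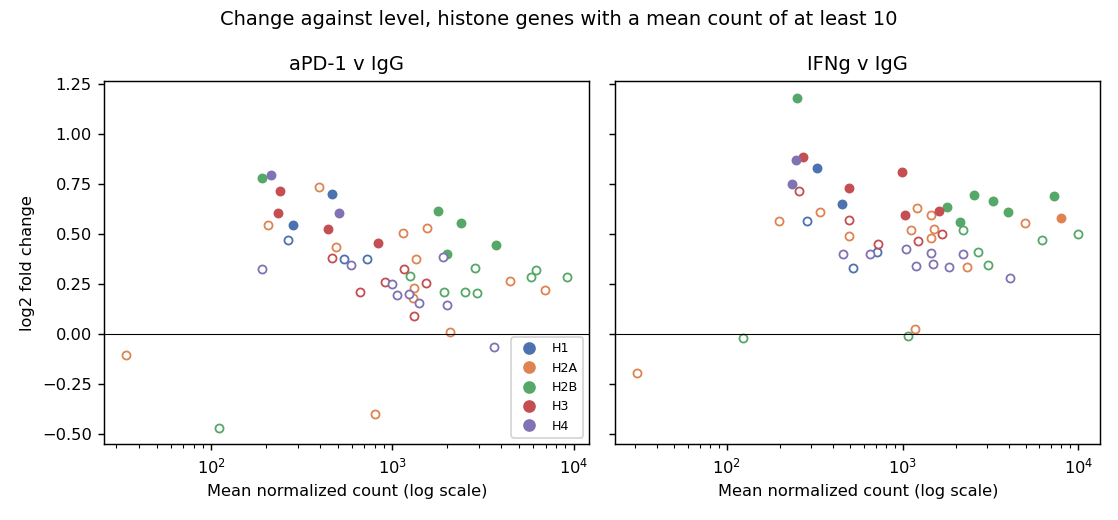
Log2 fold change against mean normalized count (log scale) for histone genes whose mean count reached 10 in the authors' deposited tables for aPD-1 v IgG (left) and IFNg v IgG (right); points are genes coloured by class, filled at an adjusted p under 0.05. Spearman's rho is -0.355 on the left and -0.159 on the right (n = 53).

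Paired H2A and H2B genes did not always have like values. The promoter windows of 8 H2A and H2B pairs, which lie head to head, overlap by 220 to 279 bases, and the Hist1h2bp window printed earlier overlaps that of Hist1h2an. In the authors' deposited table for aPD-1 v IgG, Hist1h2bp had a log2 change of 0.78 and Hist1h2an 0.23, and in that of IFNg v IgG 1.18 and 0.48. Hist1h2bl had 0.62 and its partner Hist1h2ai 0.01 in the authors' deposited table for aPD-1 v IgG. The pair Hist1h2ad and Hist1h2bf ran the other way, with 0.61 for the H2A gene and -0.01 for the H2B gene in the authors' deposited table for IFNg v IgG. The differences within pairs were not tested.

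Members were also counted by where their annotated transcript ends. For 20 members with over 100 annotated bases after the stem-loop, 6 rose in aPD-1 v IgG and 6 in IFNg v IgG in the authors' deposited tables. For 18 members ending within 100 bases of it the counts were 2 and 6. For 20 members with no stem-loop match they were 5 and 5. Over all genes tested, 8.50% were higher in aPD-1 v IgG and 2.73% in IFNg v IgG. Whether these sets of members differ was not tested. Medians of the log2 change lay at 0.31 to 0.37 in aPD-1 v IgG and at 0.46 to 0.52 in IFNg v IgG.

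Near-identical genes limit what single values mean, since the counting of reads that match several genes is not stated in the sources used. Of the 58 members, 55 share at least 1 stretch of 50 bases with another gene, and 25 share 50% or more of such stretches. The median share was 46.4%. All 12 H4 genes encode the same protein, and H3 genes fall into a set of 6 and a set of 4. Hist1h1a, Hist1h1b and Hist2h2be share no such stretch, and Hist2h2be was among the members with a negative change in both comparisons against IgG named above, aPD-1 and IFNg.

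Genes of DNA replication and of histone supply were counted from lists. Of 32 S phase and DNA replication genes, 24 fell and 0 rose in the authors' deposited table for aPD-1 v IgG, with a median of -0.63. Of all genes tested in it, 10.0% were lower and 8.50% higher. Pola1, a catalytic subunit of DNA polymerase alpha, had levels of 1574 in aPD-1 and 3261 in IgG cultures (-1.05 ± 0.13, SE), and Mcm2, a subunit of the replicative helicase, 792 in aPD-1 and 1591 in IgG cultures (-1.01 ± 0.14) in the authors' deposited table. Of 24 chaperone and assembly genes 11 fell and 0 rose, including Ssrp1, a subunit of the chaperone FACT (-0.85 ± 0.15), and Chaf1b, a subunit of CAF-1 (-1.01 ± 0.22), in the authors' deposited table. Mcm2 is on this list as well as on the S phase list, and is counted in both. Slbp, which binds the stem-loop, had -0.12 ± 0.18 (adjusted p = 0.723), and Npat, the S phase activator of histone transcription, -0.16 ± 0.18 (adjusted p = 0.626) in the authors' deposited table. Of 21 listed genes of histone transcription and 3′ processing, 3 fell (Ncbp1, Cstf2 and Cpsf2) and 0 rose. The shares over all genes tested were again 10.0% and 8.50%. In aPD-1 v IgG, then, 13 histone genes rose while 24 replication genes fell.

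In IFNg v IgG few genes of these lists passed, and the difference from aPD-1 v IgG was not tested. Of the 32 S phase genes 1 rose, beside 2.73% of all genes tested, the cyclin gene Ccne1 (0.80 ± 0.25, SE, adjusted p = 0.0335), and 2 fell, beside 1.38% of all genes, Ccne2 (-0.78 ± 0.21, adjusted p = 0.00675) and Cdk2 (-0.41 ± 0.13, adjusted p = 0.0388), in the authors' deposited table. Among chaperones Daxx, a chaperone of the variant H3.3, rose by 1.16 ± 0.19 (adjusted p = 1.59e-07) in the authors' deposited table, and no other passed. The processing list had 0 higher and 0 lower by DESeq2. For aPD-1+CD8 v aPD-1 in the authors' deposited table, 24 of the 32 S phase genes rose and 0 fell, while 1 histone gene fell. Among all genes tested there, 7.82% were higher and 6.94% lower. The comparison IFNg v aPD-1 showed, in the authors' deposited table, that 17 S phase genes rose and 0 fell. Among all genes tested in it, 8.39% were higher and 7.13% lower.

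Histone variants made outside S phase were also counted, from a list with 11 genes in the table, 10 of them tested. In the authors' deposited table for aPD-1 v IgG, 4 rose: H1f0, the linker variant of non-dividing cells (0.65 ± 0.12, SE), H3f3a, an H3.3 gene (0.95 ± 0.20), H2afj (0.60 ± 0.16) and H2afv (0.56). H2afz, which encodes H2A.Z, fell by 0.49. Shares over all genes tested were 8.50% higher and 10.0% lower. In the authors' deposited table for IFNg v IgG 1 fell, H3f3a (-0.55 ± 0.14), and 0 rose, beside 1.38% and 2.73% of all genes tested. Of 18 genes of G2 and mitosis, 1 fell and 0 rose in aPD-1 v IgG, the spindle factor Tpx2 (-0.40 ± 0.14), in the authors' deposited table, where 10.0% of all genes tested were lower.

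**Figure D5:**
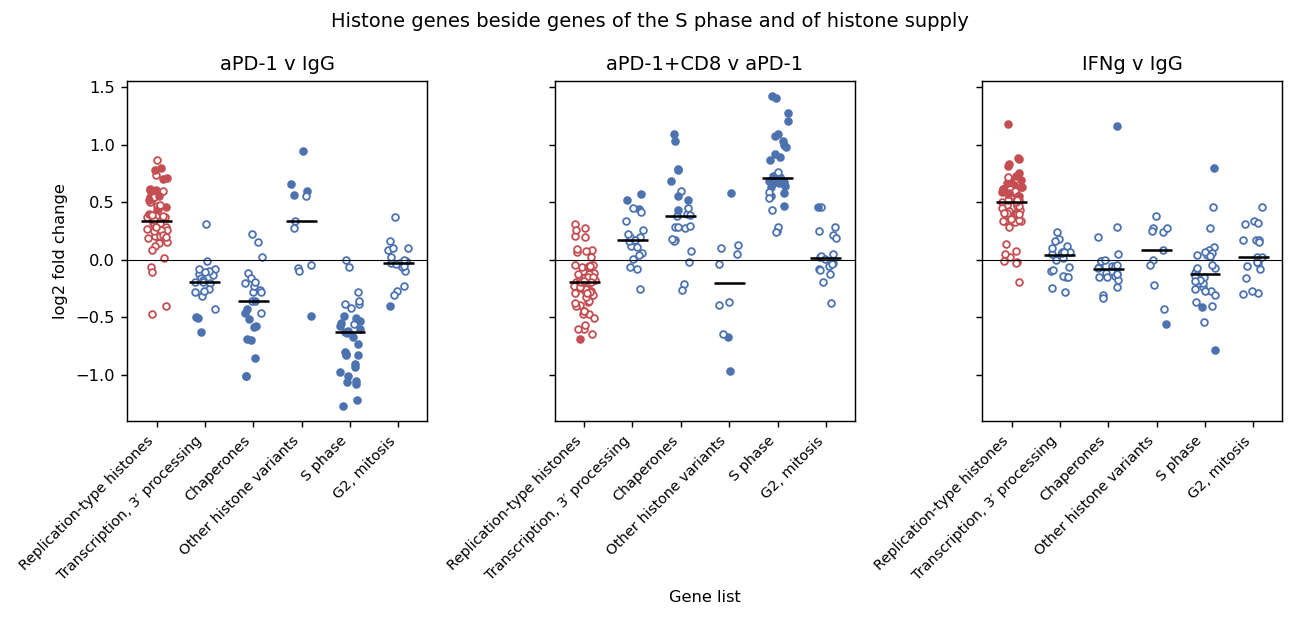
Log2 fold change of the histone genes (red) and of 5 other gene lists (blue) in the authors' deposited tables for 3 comparisons; points are genes, filled at an adjusted p under 0.05, and bars are medians. In aPD-1 v IgG the histone median is 0.34 and the S phase median -0.63, and in aPD-1+CD8 v aPD-1 they are -0.20 and 0.71.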

How the data were processed

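RNA sequencing libraries of 12 samples in 4 groups of 3 had been compared by the authors in 5 pairs. DESeq2 and the build mm9 are named in the submitters' processing notes; the version, the aligner, the counting and the strand setting are not given in the sources. The deposited signal is each gene's mean normalized count over the samples compared. The deposited log2 fold changes come with their standard errors on the same scale. The deposited Wald score is the change over its error. The p-values are the authors', with Benjamini-Hochberg adjustment, and some genes have none adjusted. The tables hold 0 columns of single samples, so depth per library is unknown and no interval on counts was made.

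Calls use an adjusted p under 0.05. Members were chosen by symbol and the other lists by hand, all with earlier results of these data known. The named members are those past the threshold in any table, the 2 of each class with the highest mean count in aPD-1 v IgG, and the 3 highest and 3 lowest changes among members whose mean count reached 10; of the other lists, at most 4 genes of smallest p in each table are named. The 5 lowest members, the H2A and H2B pairs, Slbp, Npat and H2afv were named after their values were seen. Group levels were solved from a table's own mean count and log2 change, taking groups as equal in size. The plan was to solve them across tables that share groups, but the tables' scales differ, and this is now an alternative. Sequences came from GENCODE M21 and RefSeq on GRCm38.p6, matched by symbol and synonym, and read with Biopython 1.88. Python 3.11.15, pandas 2.3.3, numpy 2.4.6, scipy 1.17.1 and matplotlib 3.10.9 were used, and the calculations were tested on simulated data.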

Additional observations from a re-analysis of the deposited data

Results flagged for a closer look

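A pair of histone genes differed between treatments in the authors' own comparison of those treatments. Hist3h2a had a log2 change of 0.96 ± 0.24 (SE, adjusted p = 0.000882) in the authors' deposited table for IFNg v aPD-1, where its levels were 1301 in IFNg and 667 in aPD-1 cultures. Hist1h1c had a log2 change of -0.69 ± 0.21 (SE, adjusted p = 0.00959) in the authors' deposited table for aPD-1+CD8 v aPD-1, where its levels were 312 in aPD-1+CD8 and 504 in aPD-1 cultures. Hist3h2a was 1 of 57 members tested in IFNg v aPD-1, where 8.39% of all genes tested were higher. Hist1h1c was 1 of 55 in aPD-1+CD8 v aPD-1, where 6.94% were lower. Both calls were thus rarer among members than among all genes.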

How the results depend on the processing

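The count of histone genes higher in aPD-1 v IgG, 13 as reported, was 7 at an adjusted p under 0.01, 0 with a log2 change of at least 1, and 26 at an unadjusted p under 0.05, where 2 were lower. For IFNg v IgG the 17 became 6, 1 and 39 under the same settings. In aPD-1+CD8 v aPD-1 the count lower, 1 as reported, was 0 with a log2 change of at least 1, 2 when p-values were adjusted over genes whose mean count reached 10, and 9 unadjusted. At an unadjusted p, 1 was higher in aPD-1+CD8 v IgG and 7 in IFNg v aPD-1, which had 0 with a log2 change of at least 1. Over all genes tested, the unadjusted p gave 1576 of 12024 higher and 1814 lower in aPD-1 v IgG. It gave 743 of 11478 higher in IFNg v IgG and 1393 of 11560 lower in aPD-1+CD8 v aPD-1. In aPD-1+CD8 v IgG it gave 21 of 15304 higher, and in IFNg v aPD-1 1678 of 12260. Among settings chosen after seeing the data, the 21 members with no identical protein held 4 calls in aPD-1 v IgG and 6 in IFNg v IgG, and the 33 members sharing under 50% of 50-base stretches held 11 in IFNg v IgG. These settings count fewer genes. The log2 ratio of summed levels solved from tables that share groups was -0.50 in aPD-1+CD8 v aPD-1, against -0.16 from the table itself, and -0.29 in aPD-1+CD8 v IgG, against 0.08. The median of all 5704 genes so solved was shifted too, by -0.33 in aPD-1+CD8 v aPD-1 and -0.42 in aPD-1+CD8 v IgG; relative to it the histone values were -0.17 and 0.13. The other 54 counts and 23 levels or medians kept their side. No paired analysis was possible because the tables hold no single-sample columns, and for that reason no replicate could be left out. The planned setting that drops identical RefSeq proteins was not run, and the GENCODE coding sequences took its place.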
